A study of Danio rerio with 14 samples.

Results

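The peaks of Rad21 and of CTCF at 10 hours post fertilisation (hpf), when gastrulation ends in the zebrafish, were set against each other along the chromosomes. Every peak of the Rad21 list (18075) and of the CTCF list (14079) on chromosomes 1 to 25 was taken, 32154 of the 41310 peaks in the 4 lists of the series. The samples were AB/PS embryos, 1000 pooled for a collection, with 2 libraries from independent collections for Rad21, 2 for CTCF and 2 for an input without antibody. Both antibodies were custom made. No genetic change or treatment is given in the labels, and the antibody is the one difference they name between the groups. Each antibody has 1 deposited list in which libraries are not told apart, so replicate error is unknown and nothing below carries a p-value. Embryos were taken whole, so a site bound in few cells and a site bound weakly in many cannot be told apart. Intervals are exact 95% intervals (Clopper-Pearson for shares, Poisson for densities) and cover counting error only, with neighbouring peaks taken as independent.

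Rad21 is a subunit of cohesin, the ring-shaped complex that holds sister chromatids together and, in vertebrate cells, extrudes chromatin loops. CTCF is a zinc finger protein that binds a long DNA motif and can halt a moving cohesin, so that cohesin is known to collect at CTCF sites. Cohesin is also found away from CTCF, at enhancers and promoters among other places. No genome or gene annotation of the build of these files, Zv9, was used here, so sites are given by position, and neither the CTCF motif nor the genes beside a site could be read. The identity of the antibodies' targets was therefore not checked against sequence.

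The lists differ in how they were made. The headers give 13260105 tags for Rad21 and 28291282 for CTCF against the same input. Of 35851 putative Rad21 peaks 45.8% were removed by the comparison with input and 3.77% by the comparison with the surrounding 10 kb, and 50.4% were kept. Of 90217 putative CTCF peaks 72.6% and 11.8% were removed by the same filters, and 15.6% were kept. Rad21 peaks were centred at the highest pile-up of tags, while the CTCF header has no such line. Density came to 13.3 Rad21 peaks and 10.4 CTCF peaks per Mb. The part of these differences in the results below was not tested.

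Rad21 and CTCF peaks either lay on top of each other or, over the whole lists and from about 300 bp to 100 kb, were about as far apart as evenly spread positions. Of the 3662 Rad21 peaks with a CTCF peak centre within 1 kb of their own, 3391 overlapped it (at least 1 bp) and 271, or 7.4%, did not. By distance between centres, 1552 Rad21 peaks lay within 25 bp of a CTCF peak, 977 between 25 and 50 bp, 688 between 50 and 100 bp and 174 between 100 and 177 bp, the largest distance at which peaks of these widths touch. Per 100 bp of distance this was a fall from 6208 peaks to 226. The count went on falling to 43.1 per 100 bp between 177 and 300 bp, and from there to 1 kb it stood between 23 and 37. The 53 pairs between 177 and 300 bp were 1.41 times (1.06 to 1.84) what evenly spread positions give. None of them was at a shared site, and the caller required at least 378 bp between Rad21 peaks and 328 bp between CTCF peaks. Set against the bases that near CTCF-only peaks alone, these pairs were 1.86 times (1.39 to 2.43) what even spacing gives. The 3391 overlapping pairs, called shared sites here, were 18.8% of the Rad21 list and 24.1% of the CTCF list. The remaining 14684 Rad21-only and 10688 CTCF-only peaks are the subject of the distances below.

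**Figure D1:**
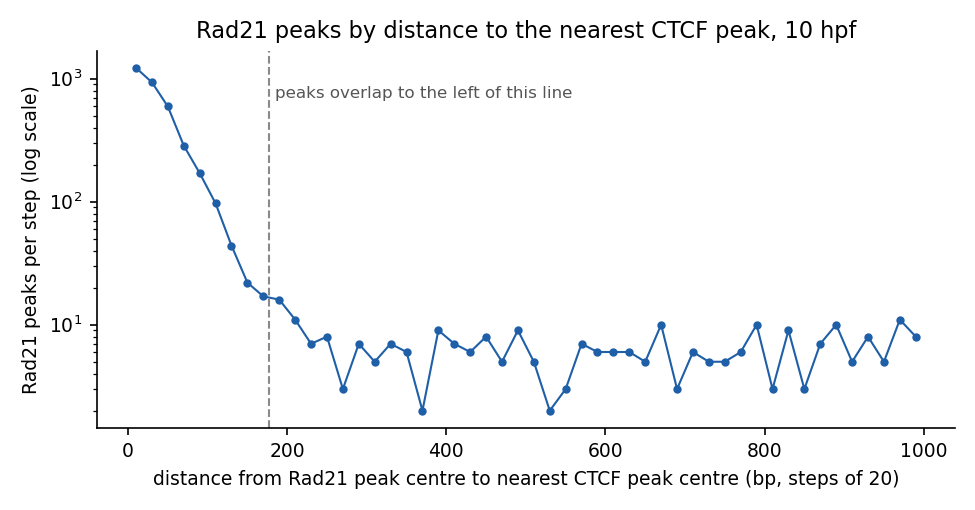
Number of 10 hpf Rad21 peaks (log scale) by the distance in bp from their centre to the nearest CTCF peak centre, in steps of 20 bp up to 1 kb, with 1 list per antibody and no error bars. The count falls steeply up to 177 bp (dashed line), where peaks stop overlapping, and is level from about 300 bp onwards.

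Peaks within 1 kb of the other protein but without overlap were named by place in the lists, not by nearness. Among the highest placed CTCF peaks in the deposited order, which was used as a rank, the 6th and 7th, at chromosome 4, 11111684 to 11111848 and 10861118 to 10861282, overlapped no Rad21 peak but lay 340 and 331 bp from one. The 23rd, at chromosome 4, 10860395 to 10860559, lay 392 bp from one, and it lies on the other side of the Rad21 peak beside the 7th. In the Rad21 list the first were at chromosome 17, 44509615 to 44509803 (place 121, 864 bp), chromosome 21, 18246387 to 18246575 (place 144, 497 bp), and chromosome 20, 4028516 to 4028704 (place 361, 211 bp). At the other extreme, 1799 Rad21 peaks (9.95% of the whole list) and 1422 CTCF peaks (10.1%) had no peak of the other protein within 100 kb. Within that distance lay 87.7% of Rad21-only peaks against 82.9% of bases, and 86.7% of CTCF-only peaks against 82.7% of bases. Peaks further away were thus fewer than evenly spread positions give. The first such Rad21 peak was at chromosome 23, 44039129 to 44039317, place 16 in its list, with the nearest CTCF peak 168 kb away. The first such CTCF peak was at chromosome 2, 13978152 to 13978316, place 9, with the nearest Rad21 peak 152 kb away. These are single peaks, and overlap itself went with place: 65.1% of the first 2816 CTCF peaks and 4.51% of the last 2815 were shared sites, as were 26.8% and 8.46% of the first and last 3615 Rad21 peaks.

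Beyond overlap, distances were set beside the share of chromosome bases that lie equally near a peak of the other list, which is the level for positions spread evenly along the chromosomes. Rad21-only peaks had a median distance of 32.3 kb to the nearest CTCF peak (quartiles 13.1 and 65.4). Within 10 kb of a CTCF peak lay 2846 of them, or 19.4% (18.7 to 20), against 18.3% of bases, a ratio of 1.06. CTCF-only peaks had a median distance of 28.7 kb to the nearest Rad21 peak (quartiles 11.4 and 63.8). Within 10 kb of a Rad21 peak lay 2340, or 21.9% (21.1 to 22.7), against 21.9% of bases, a ratio of 1.00. From 500 bp to 100 kb the ratio in single bins of distance ran from 1.02 to 1.16 for Rad21-only peaks and from 0.839 to 1.07 for CTCF-only peaks. Once the overlapping pairs were set aside, proximity of the proteins was therefore close to that of evenly spread positions, from 500 bp up to about 100 kb. This was not so when both lists were shortened together: with the first 9037 Rad21 and 7039 CTCF peaks the ratios within 10 kb were 1.40 and 1.24.

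Very distant pairs were rarer than even spacing gives. Beyond 200 kb and up to 500 kb from any CTCF peak lay 1.9% of Rad21-only peaks and 3.9% of bases, a ratio of 0.487. For CTCF-only peaks from Rad21 the values were 3.12% and 5.18%, a ratio of 0.601. Of the 63.9 Mb more than 200 kb from a CTCF peak, 28.9% lay on chromosome 4, which has 4.58% of the length, and of the 79.2 Mb that far from a Rad21 peak 17.8% did. These stretches were thus poor in both proteins.

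The near-even spacing concealed a split by the kind of CTCF site. Over 10 kb, Rad21-only peaks lay close to shared sites more often than bases did and close to CTCF-only sites about as often. Within 500 bp of a CTCF-only site they lay 1.43 times (1.17 to 1.73) as often as bases. Within 10 kb of a shared site were 936 Rad21-only peaks, or 6.37% (5.98 to 6.78), against 4.74% of bases, a ratio of 1.35 (1.26 to 1.43). Within 10 kb of a CTCF-only site were 2059, or 14.0% (13.5 to 14.6), against 14.2% of bases, a ratio of 0.986 (0.947 to 1.03). With the shortened lists the ratios were 1.81 around shared sites and 1.25 around CTCF-only sites. The excess around shared sites was 1.62-fold between 500 bp and 1 kb, 1.41-fold between 2 and 5 kb, 1.24-fold between 50 and 100 kb and 1.05-fold between 100 and 200 kb, so it declined slowly and came near even spacing only there. Closer in, the spacing of at least 378 bp between Rad21 peaks that the caller required sets the count. A site is shared only where Rad21 was called, so this result measures in part how far Rad21 peaks lie near other Rad21 peaks. The kind of site also went with place in the CTCF list, with 65.1% of its first 2816 peaks and 4.51% of its last 2815 shared. CTCF-only peaks among those first 2816 themselves lay within 10 kb of Rad21 at a ratio of 1.55. The parts of kind and place in the split were not separated.

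Taken over the whole list, CTCF-only peaks were not in excess around shared sites. Within 5 kb of a shared site lay 197 CTCF-only peaks, or 1.84% (1.6 to 2.12), against 2.37% of bases, a ratio of 0.778 (0.674 to 0.894). Within 10 kb the ratio was 0.971 (0.889 to 1.06). The local filter compares each putative peak with the 10 kb around it and works against a weak peak beside a strong one. It removed 11.8% of putative CTCF peaks and 3.77% of putative Rad21 peaks. These shares include the putative peaks that the input comparison removed. In counts, the local filter removed 10669 CTCF peaks where 14079 were kept, and 1351 Rad21 peaks where 18075 were kept. Its part in the deficit was not tested. The relation varied with place in the CTCF list, as given below.

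**Figure D2:**
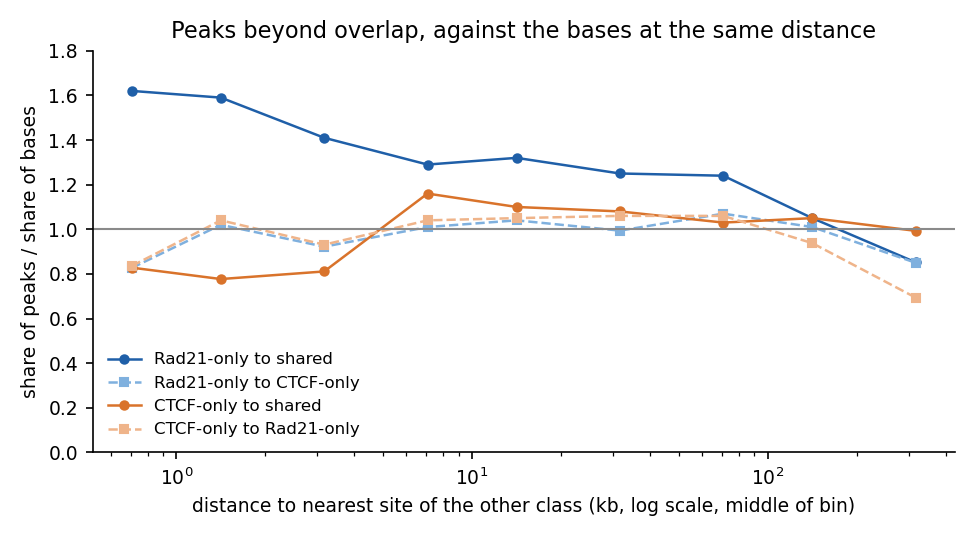
Ratio of the share of peaks to the share of chromosome bases (y axis) at each distance from the nearest site of another class (x axis, kb, log scale), for 4 pairs of classes. 1 (grey line) is the level of evenly spread positions. Rad21-only peaks around shared sites start at 1.62 and pass 1.05 between 100 and 200 kb, while the dashed lines (Rad21-only against CTCF-only peaks, in both directions) stay between 0.827 and 1.07 up to 100 kb. Distances under 500 bp are not drawn, and between 177 and 300 bp the ratio of Rad21-only against CTCF-only peaks was 1.86 in both directions.

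The same contrast appeared between neighbouring CTCF peaks. The 14054 intervals from one CTCF peak to the next had a median length of 60.1 kb, and 53.1% of them held no Rad21-only peak. Where neither flanking CTCF peak was a shared site, the intervals held 9.22 Rad21-only peaks per Mb (9.02 to 9.44, 7440 peaks in 807 Mb). With 1 shared flank they held 12.6 (12.3 to 13, 5844 peaks in 463 Mb), and with both flanks shared 16.0 (15.1 to 16.8, 1355 peaks in 84.9 Mb). The median lengths of the 3 kinds were similar, at 59.9, 61.0 and 57.0 kb. Density rose in this order on 20 of 25 chromosomes, and intervals with both flanks shared exceeded those with none on all 25. In intervals of 50 to 100 kb the 3 densities were 10.3, 12.8 and 16.7 per Mb, and in those of 100 to 200 kb 10.4, 13.9 and 17.5. In those over 500 kb they were 4.87, 6.57 and 11.3, the last from 9 intervals.

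Turning the comparison round gave no such order. Between neighbouring Rad21 peaks (18050 intervals, median 40.3 kb) CTCF-only peaks stood at 7.67 per Mb (7.49 to 7.85) with no shared flank, 8.3 (8.02 to 8.59) with 1 and 7.88 (7.12 to 8.7) with both. Density with 1 shared flank exceeded that with none on 17 of 25 chromosomes, and density with both did on 10. It rose in the order none, 1 and both on 5. These densities are averages over the CTCF list, in which nearness to shared sites varied with place, as given below. The order seen between CTCF peaks rests on Rad21 calls at the flanks as well as inside, and Rad21 was uneven along the genome, as described below. The part of this unevenness in the order was not tested. The contribution of CTCF cannot be told apart from it here.

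**Figure D3:**
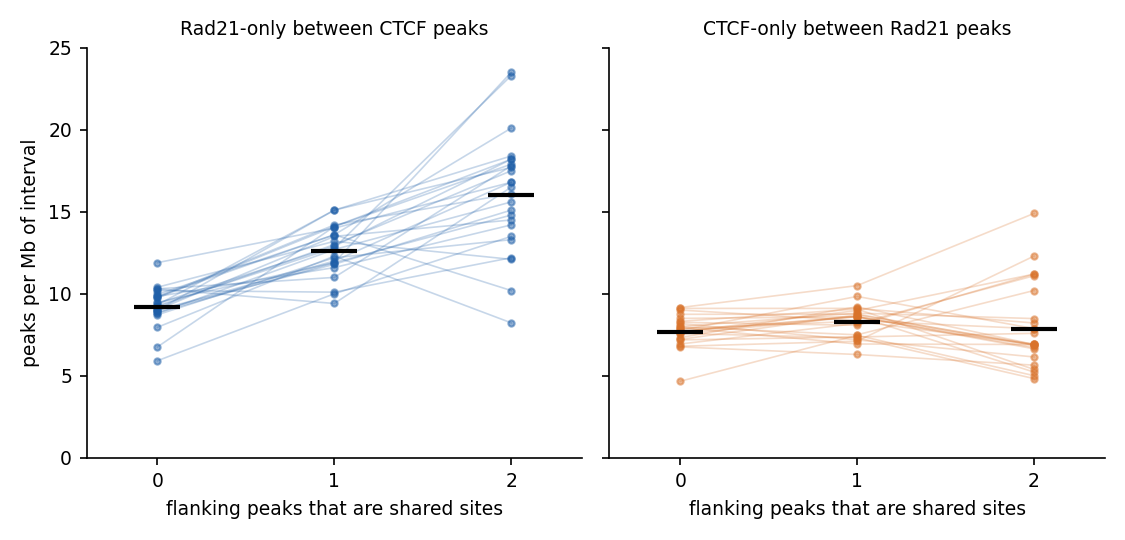
Peaks per Mb of interval (y axis) by the number of flanking peaks that are shared sites (x axis), for Rad21-only peaks between neighbouring CTCF peaks (left) and CTCF-only peaks between neighbouring Rad21 peaks (right). Points joined by thin lines are the 25 chromosomes and black bars the whole genome, at 9.22, 12.6 and 16.0 on the left and 7.67, 8.3 and 7.88 on the right.

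Place in the CTCF list, read in 5 equal parts, went with proximity to Rad21 even without overlap, and place in the Rad21 list hardly did. In the first part of the CTCF list 332 of 982 CTCF-only peaks, or 33.8% (30.9 to 36.9), lay within 10 kb of a Rad21 peak, where 21.9% of bases do, a ratio of 1.55. The ratio was 1.23 in the second part, 1.03 in the third, 0.821 in the fourth and 0.794 in the last, with 17.4% (16 to 18.9) of 2688 peaks. Their median distance to Rad21 went from 20.0 kb in the first part to 33.6 kb in the last. In the Rad21 list the ratio to CTCF stayed between 1.05 and 1.08 in all 5 parts. The ratio around shared sites changed with place in both lists. For Rad21-only peaks it was 1.47 and 1.69 in the first and second part and 1.01 in the last. For CTCF-only peaks it was 1.89 in the first part, with 8.96% (7.25 to 10.9) against 4.74% of bases, 1.24 in the second and 0.691 in the last. The overall ratio of 1.00 for CTCF-only peaks was thus an average over high places that lay near Rad21 and low places that lay away from it.

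Counts per window were correlated for all peaks and hardly for peaks without overlap. Over windows of 10 kb, 100 kb, 1 Mb and 5 Mb, Spearman's rho between Rad21 and CTCF counts was 0.20, 0.24, 0.35 and 0.46 (135630, 13572, 1369 and 284 windows). With only Rad21-only and CTCF-only peaks it was -0.01, 0.02, 0.07 and 0.16. Each of the 3391 shared sites adds to both counts of its window, which raises the rho of all peaks by construction. Mean counts were 0.133 Rad21 and 0.104 CTCF peaks at 10 kb and 63.6 and 49.6 at 5 Mb. Values at different window sizes are therefore not directly comparable. At 1 Mb the rho of all peaks was above 0 on 24 of 25 chromosomes (-0.12 to 0.82) and that of peaks without overlap on 14 (-0.29 to 0.74). Shared sites and Rad21-only peaks, both from the Rad21 list, were correlated at 0.44 at 1 Mb, above 0 on all 25 chromosomes, and at 0.63 at 5 Mb. Shared sites and CTCF-only peaks reached 0.13 and 0.32. Windows share the input, the mappability of their sequence and the gaps of the assembly, and are not replicates.

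**Figure D4:**
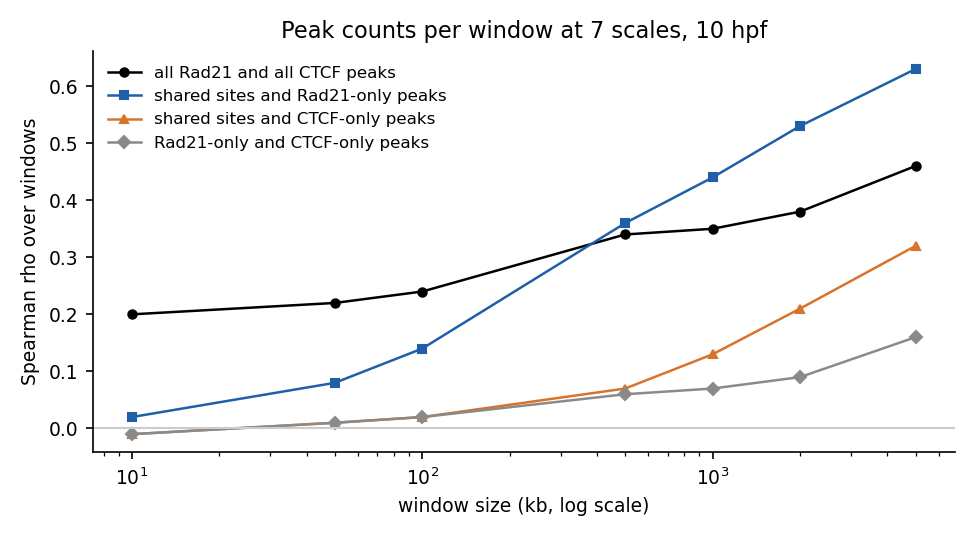
Spearman's rho between peak counts (y axis) over windows of 10 kb to 5 Mb (x axis, kb, log scale) for 4 pairs of peak classes at 10 hpf. Rad21-only against CTCF-only peaks (grey) stays between -0.01 and 0.16, while shared sites against Rad21-only peaks (blue) climbs to 0.63.

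Rad21 peaks were more uneven along the genome than CTCF peaks. A 1 Mb window held a median of 12 Rad21 peaks (quartiles 8 and 18, highest 41) and 10 CTCF peaks (quartiles 8 and 13, highest 28). The variance of the counts divided by their mean, which is 1 for independent placing, was 3.66 for Rad21 and 1.78 for CTCF at 1 Mb. At 100 kb it was 1.49 and 1.12, and at 10 kb 1.05 and 0.999. Among the classes at 1 Mb it was 3.26 for Rad21-only peaks, 1.61 for CTCF-only peaks and 1.49 for shared sites. At equal relative unevenness this quotient rises with the mean count, which differs between window sizes and between classes (14684, 10688 and 3391 peaks). It therefore does not rank the classes by unevenness. Of 1369 windows, 13 held no Rad21 peak and 12 no CTCF peak. Neither protein had a peak in 4, of which 3 were on chromosome 4.

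Windows rich in one protein and poor in the other were called among the 1279 windows of 1 Mb with at least 10 peaks of both lists together. A window counted as rich in Rad21 when its share of the Rad21 list was at least 2 times its share of the CTCF list, with 0.5 added to each count, and as rich in CTCF when the ratio was at most 0.5. The first kind numbered 103, or 8.05% of windows, and the second 144, or 11.3%. Windows just inside and just outside stood at ratios of 2.025 and 1.998, and of 0.4993 and 0.504. Of all peaks 56.2% are Rad21 peaks. The interval of a window's own Rad21 share lay above this in 69 of the 103 windows and below it in 55 of the 144. Many calls thus rest on counts too small to separate from the whole. Over all 1279 windows the interval lay above in 70 and below in 55. These intervals use the counts that chose the windows, so they are no separate support for the calls. At 500 kb the order of the classes turned round, with 236 of 1731 windows rich in Rad21 (13.6%) and 174 rich in CTCF (10.1%). The limit of 10 peaks kept 1731 of 2724 windows there and 1279 of 1369 at 1 Mb. Scale and the set of windows tested thus changed together.

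The Rad21-rich window with the highest ratio was chromosome 16 from 39 to 40 Mb, with 15 Rad21 peaks and 1 CTCF peak (ratio 8.05, Rad21 share 93.8%, 69.8 to 99.8). Next came chromosome 7 from 54 to 55 Mb with 24 and 2 (7.63), chromosome 6 from 18 to 19 Mb with 12 and 1 (6.49), chromosome 12 from 32 to 33 Mb with 18 and 2 (5.76) and chromosome 2 from 39 to 40 Mb with 17 and 2 (5.45), a ratio that a window with 10 and 1 shared. At the other end, chromosome 17 from 13 to 14 Mb held 10 CTCF peaks and no Rad21 peak (Rad21 share 0%, 0 to 30.8). Chromosome 22 from 6 to 7 Mb held 12 and 1, chromosome 11 from 33 to 34 Mb 19 and 2, and chromosome 5 from 11 to 12 Mb and chromosome 10 from 12 to 13 Mb 9 and 1 each. The called windows were spread over 24 chromosomes for Rad21 and 25 for CTCF. A neighbouring window had the same call for 31.1% of the first kind and 29.2% of the second. The longest unbroken stretches were 3 windows for Rad21, on chromosomes 12 (34 to 37 Mb), 13 (30 to 33 Mb), 18 (23 to 26 Mb) and 23 (27 to 30 Mb), and 4 windows for CTCF, on chromosome 14 (9 to 13 Mb).

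These windows were also compared by the order of the lists and by the earlier stage. Rad21 peaks of 4.5 hpf, which the calls did not use, stood at 6.78 per Mb (6.28 to 7.3) in Rad21-rich windows, 5.67 (5.52 to 5.82) in windows of neither kind and 3.41 (3.11 to 3.73) in CTCF-rich windows. Their median per window was 7, 5 and 3, and the ranges overlapped (0 to 18, 0 to 19 and 0 to 11). CTCF peaks in Rad21-rich windows were few but high in their list, with a median place of 4576 against 8699 in CTCF-rich windows and 7040 over the list. Of these CTCF peaks 39.6% were shared sites, against 11.5% in CTCF-rich windows, and these shares follow in part from the number of Rad21 peaks that chose the windows. Shared sites stand high in the CTCF list (65.1% of its first 2816 peaks, 4.51% of its last 2815). The median places of CTCF peaks are thus not independent of the choice of windows either. Rad21 peaks differed less in place, with medians of 8529 and 10470 against 9038 over the list. Shared sites stood at 2.62 per Mb in Rad21-rich windows and 2.81 in windows of neither kind, and Rad21-only peaks at 20.2 and 11.5. Both follow in part from the choice of windows with many Rad21 and few CTCF peaks.

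The balance of the proteins changed from the chromosome ends inwards. In the last 1 Mb both were dense, at 16.4 Rad21 peaks (15.3 to 17.6) and 14.6 CTCF peaks (13.6 to 15.7) per Mb. Between 1 and 5 Mb from an end they were at 10.6 (10.1 to 11) and 11.1 (10.6 to 11.5), a Rad21 to CTCF ratio of 0.956, against 1.28 over the whole lists. More than 5 Mb from an end they were at 13.7 (13.5 to 13.9) and 10.1 (9.88 to 10.3), a ratio of 1.36. The ratio from 1 to 5 Mb was lower than the inner one on all 25 chromosomes (0.648 to 1.33, median 0.933, against 1.17 to 1.66, median 1.34). In finer steps the ratio was 0.996 from 5 to 7 Mb, 1.08 from 7 to 10 Mb, 1.18 from 10 to 15 Mb and 1.58 beyond 15 Mb, where Rad21 density reached 15.5 per Mb and CTCF density 9.81.

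Shared sites were densest in the last 1 Mb, at 4.40 per Mb (3.84 to 5.02). Their density was 2.44 per Mb (2.22 to 2.66) from 1 to 5 Mb and 2.43 (2.34 to 2.52) over all bases further in, where it ran from 2.11 between 10 and 15 Mb to 2.65 beyond 15 Mb. The last 1 Mb was dense in the other classes too, at 12 Rad21-only peaks (11.1 to 13) and 10.2 CTCF-only peaks (9.37 to 11.2) per Mb. From the zone of 1 to 5 Mb to the bases further in, Rad21-only peaks went from 8.13 (7.74 to 8.54) to 11.3 (11.1 to 11.5) per Mb. CTCF-only peaks went from 8.62 (8.22 to 9.04) to 7.64 (7.48 to 7.8). Rad21 peaks of 4.5 hpf stood at 9.32 per Mb (8.49 to 10.2) in the last 1 Mb. They were at 4.79 (4.49 to 5.1) from 1 to 5 Mb and 5.17 (5.04 to 5.31) further in, with these zones a smaller step than at 10 hpf. In finer steps they went from 5.3 between 1 and 2 Mb to 4 between 4 and 5 Mb and 5.7 beyond 15 Mb. Rad21 peaks of 10 hpf were at 11, 10.9 and 15.5 per Mb there. The size of the step thus depends on the zones, and the difference between stages was not tested. Of the 186 windows tested whose centre lay 1 to 5 Mb from an end, 39 were CTCF-rich (21.0%) and 0 Rad21-rich, which allows a share of up to 1.61%. Of the 1037 windows further in, 102 were of each kind (9.84%).

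**Figure D5:**
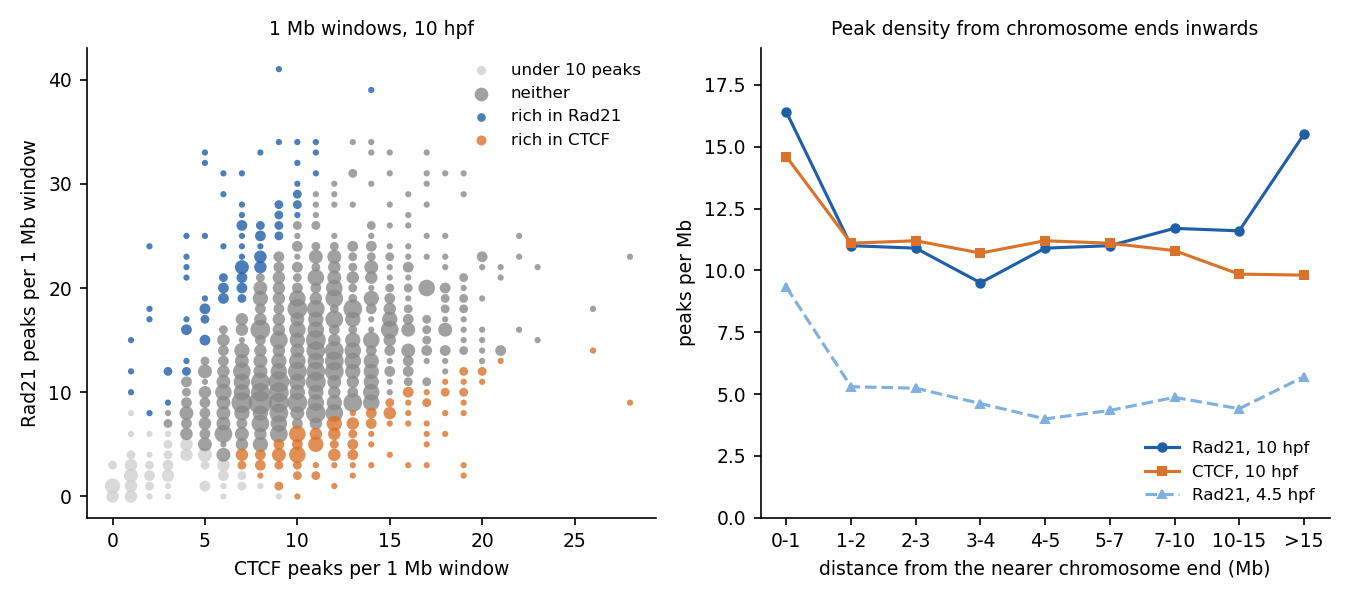
Left, Rad21 peaks (y axis) against CTCF peaks (x axis) in each 1 Mb window at 10 hpf, with dot area by the number of windows at that point and colour by the call (103 windows rich in Rad21, 144 rich in CTCF). Right, peaks per Mb (y axis) by distance in Mb from the nearer chromosome end (x axis) for the 10 hpf lists and for Rad21 at 4.5 hpf, where Rad21 at 10 hpf ends at 15.5 and CTCF at 9.81.

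Stretches were also read without windows, as runs of successive peaks of one protein with no peak of the other and no shared site between them. Rad21-only peaks fell into 6610 runs with a mean of 2.22 peaks, and 69 runs of at least 10 held 5.69% of them. CTCF-only peaks fell into 5999 runs with a mean of 1.78, and 11 runs of at least 10 held 1.24%. Long Rad21 runs were short in bases, with a median of 332 kb against 769 kb for the CTCF runs of at least 10. With the first 14079 Rad21 peaks, as many as the CTCF list holds, the counts became 29 and 38, so which protein had more long runs turned round. That setting changes the number of peaks and drops the lowest places together, and their parts cannot be told apart.

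The longest Rad21 run was 20 peaks at chromosome 19, 26263237 to 26619913 (357 kb, 56.1 peaks per Mb). It was followed by 19 at chromosome 6, 50401576 to 50718188, 18 at chromosome 1, 46458710 to 47080677, 18 at chromosome 23, 28037868 to 28490483, and 17 at chromosome 14, 33540164 to 33804797 (265 kb, 64.2 peaks per Mb). All but the run on chromosome 23 lay between CTCF peaks of which 1 was a shared site. Among all 14054 intervals between CTCF peaks 4844 had 1 shared flank, and so few runs cannot be told apart from that share. These runs mixed high and low places, from 214 to 15514 in the run on chromosome 6 and from 910 to 16278 in that on chromosome 19. They held 6, 6, 2, 9 and 9 Rad21 peaks of 4.5 hpf in the order given. The longest CTCF runs were 16 peaks at chromosome 1, 5531063 to 6300251 (769 kb), 15 at chromosome 1, 53704424 to 54488309 (784 kb), and 14 at chromosome 13, 44397905 to 45195759 (798 kb). Next were 13 at chromosome 1, 48356073 to 48897629, and 12 at chromosome 12, 40803075 to 41975109 (1172 kb). Neither Rad21 neighbour was a shared site in any of these 5, which also held for 11949 of all 18050 intervals between Rad21 peaks. No peak of these runs stood higher than place 2205 in the CTCF list, and the runs held 1, 2, 0, 2 and 3 Rad21 peaks of 4.5 hpf.

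By chromosome the ratio of Rad21 to CTCF peaks ran from 1.11 on chromosome 10 (589 and 531 peaks) to 1.57 on chromosome 7 (1083 and 689 peaks). Chromosome 7 combined a Rad21 density of 14.0 per Mb with the second lowest CTCF density, 8.92 per Mb, after chromosome 4 at 6.94. The interval of the Rad21 share lay above that of the whole lists on 4 chromosomes (7, 23, 13 and 20), below it on 3 (10, 1 and 11) and across it on 18. Chromosome 4 was poor in both, at 9.28 and 6.94 per Mb, and its ratio of 1.34 lay near the 1.28 of the whole lists. The share of Rad21 peaks at shared sites had a narrow range over chromosomes, from 15.5% on chromosome 20 to 21.0% on chromosome 16.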

How the data were processed

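Bowtie2 2.2.1, HOMER and the Zv9 build are named in the submitters' processing notes. Per the file headers, HOMER called both 10 hpf lists against a single input directory with the false discovery rate set to 0.001 and a required 4-fold excess over input and over the 10000 bp around, at most 1 tag per position for Rad21 and 2 for CTCF. The headers name 1 tag directory per antibody, and pooling of the 2 libraries is not stated. The deposited score is 1 in every row, so the deposited order served as rank, and no source used here says how it was sorted. Peaks were 189 bp wide for Rad21, and the header gives a peak size of 164 bp for CTCF.

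Coordinates are 1-based. A chromosome's length was the largest peak end over the 4 lists (1356 Mb in all). Distances ran between centres, and shares of bases were counted exactly, outside the 177 bp where peaks overlap. A share of 0 is given with the limit of 3 counts. Python 3.11.15, numpy 2.4.6, pandas 2.3.3, scipy 1.17.1 and matplotlib 3.10.9 were used, and the functions were tested on made-up peaks. Windows and runs were named by rank of ratio or length (5 each), and peaks by deposited order. The comparisons and lists were chosen with earlier results of these data known. The split of intervals by shared flanks, the profile beyond the last 1 Mb of chromosome ends and the alternatives to both were added after the data were seen.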

Additional observations from a re-analysis of the deposited data

How the results depend on the processing

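No paired analysis was possible because each antibody has 1 deposited list with no value per library, and for the same reason no replicate could be left out. Over 69 alternatives 50 stayed near the main value and 19 moved (counts of peaks, windows or runs by over 1.5 times, distance ratios outside their counting interval, correlations by 0.1, interval and end ratios by over 1.1 times). Among the ratios recomputed, none whose interval excluded 1 changed side. CTCF-only peaks around shared sites were not recomputed, so how their ratio of 0.778 within 5 kb depends on these settings is unknown. With the first 9037 Rad21 and 7039 CTCF peaks, shared sites numbered 2106 in place of 3391, a count that cannot rise when lists are shortened. They were 23.3% of the shortened Rad21 list and 29.9% of the shortened CTCF list, against 18.8% and 24.1% with all peaks. The 4 distance ratios at 10 kb that were recomputed were higher with the shortened lists. They were 1.40 for Rad21-only to CTCF (1.06 with all peaks), 1.24 for CTCF-only to Rad21 (1.00), 1.81 for Rad21-only to shared sites (1.35) and 1.25 for Rad21-only to CTCF-only (0.986). Spacing near that of even positions was thus not found when both lists were shortened together. Against all CTCF peaks, Rad21-only peaks of the first and second of 5 parts of the Rad21 list stood at 1.08 and 1.05. Rad21-only to shared sites stood at 1.52 with lists of equal length and 1.23 with peaks within 1 kb merged. The ratio of interval densities, both flanks shared against none, was 1.73, and 1.95 with equal lengths and 1.57 with the upper parts. The ratio of Rad21 to CTCF 1 to 5 Mb from an end, relative to further in, was 0.703, and 0.845 with the upper parts. Chromosome ratios relative to the whole lists, 1.22 at the highest and 0.864 at the lowest, became 1.12 and 0.776 with the upper parts. With peaks without overlap they were 1.29 and 0.828. These shifts were counted as near the main value. Windows rich in Rad21 numbered 103 of 1279 (8.05%), and 236 of 1731 (13.6%) at 500 kb, 28 of 672 (4.17%) at 2 Mb, 244 at a ratio of 1.5 and 19 at 3. Windows rich in CTCF numbered 144 (11.3%), and 174 (10.1%) at 500 kb, 49 (7.29%) at 2 Mb, 301 at 1.5 and 41 at 3. At 500 kb Rad21-rich windows were thus the more numerous, among the 1731 of 2724 windows with at least 10 peaks. Runs of at least 10 went from 69 to 29 for Rad21 and from 11 to 38 for CTCF with lists of equal length. The causes were not tested. At 1 Mb, where the alternatives were run, no window correlation moved by 0.1, and without chromosome 4 that of peaks without overlap was 0.01. At 5 Mb Pearson's r was 0.56 for all peaks (rho 0.46), 0.30 for peaks without overlap (0.16) and 0.42 for shared sites with CTCF-only peaks (0.32). The CTCF list has over 2 times the tags of the Rad21 list, and weak sites that either list misses count here as absent.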
